A study of Mus musculus with 66 samples.

Results

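The hypoxia-inducible factor (HIF) machinery was examined through 8 genes: the factor subunits Hif1a, Epas1 and Arnt, and the oxygen sensors and degradation factor Egln1, Egln2, Egln3, Hif1an and Vhl. They were taken by symbol from a deposited table of 24062 genes, in which all 8 had a row. The oocytes and germ cells came from 24 groups and 66 RNA-seq libraries. Cultured D21 oocytes carried the Foxo3dNES transgene (Foxo3dNES Tg, here Tg) or were wild type (WT). They were grown in 5% oxygen (hypoxia) or in air (normoxia), with 2 libraries in each of the 4 combinations. A further 2 Tg and 2 WT libraries of D21 have no oxygen condition in their labels. The culture course runs over 9 days of culture with 3 libraries each (first D5, D7 and D9; next D10, D11 and D13; last D15, D17 and D20). The in vivo course runs over the fetal ages E14.5, E16.5 and E18.5 and the postnatal ages P1 and P3, then small and large oocytes of P4 and of P6, with 3 libraries each.

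In vivo cells came from C57BL/6 x B6D2F1 ovaries, all with the stella-ECFP(SC) reporter. Cultured cells came from C57BL/6 X 129/SvJ embryonic stem cells, by way of primordial germ cell-like cells sorted for a Blimp1-mVenus reporter. These were aggregated with gonadal somatic cells of E12.5 fetuses into reconstituted ovaries, with a Rock inhibitor at the start of culture. The hypoxic gas also held more carbon dioxide than the normoxic gas, so effects of the 2 gases cannot be told apart. The promoter that drives the transgene and the number of transgenic clones are not given in the sources used here. The submitters describe the replicates as biological.

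HIF is a pair of subunits, an oxygen-labile alpha subunit (HIF1A or EPAS1) bound to a stable partner (ARNT). In oxygen, the prolyl hydroxylases EGLN1, EGLN2 and EGLN3 modify the alpha subunit, and VHL then recognises it for ubiquitination and degradation. HIF1AN hydroxylates an asparagine of the alpha subunit and blocks its binding to coactivators. Because this control acts on protein, messenger levels describe the supply of the parts and not HIF activity. Foxo3 is known for holding oocytes of primordial follicles in dormancy.

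Promoters are shown because HIF binds the core letters ACGTG or GCGTG, so the windows show which members carry those letters at their own start. RefSeq windows on build GRCm38.p6, from 250 bases before to 50 after each start, matched 7 of the 8 members, and Epas1 is named only. Capitals mark ACGTG or GCGTG on either strand. Cores that overlap, as in CACGTG, which reads ACGTG on both strands, are counted as 1 stretch. The lines give Egln2 (chr7:27166753-27167052, minus strand), Egln1 (chr8:124949205-124949504, minus strand), Egln3 (chr12:54203825-54204124, minus strand), Vhl (chr6:113623744-113624043, plus strand) and Hif1an (chr19:44562604-44562903, plus strand).
Egln2: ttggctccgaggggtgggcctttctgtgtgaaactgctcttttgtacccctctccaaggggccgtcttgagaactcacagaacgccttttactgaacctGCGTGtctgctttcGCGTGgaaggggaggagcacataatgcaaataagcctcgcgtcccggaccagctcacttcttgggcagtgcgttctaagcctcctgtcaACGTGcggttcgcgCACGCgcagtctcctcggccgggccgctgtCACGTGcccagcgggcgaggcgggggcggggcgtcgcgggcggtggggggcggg
Egln1: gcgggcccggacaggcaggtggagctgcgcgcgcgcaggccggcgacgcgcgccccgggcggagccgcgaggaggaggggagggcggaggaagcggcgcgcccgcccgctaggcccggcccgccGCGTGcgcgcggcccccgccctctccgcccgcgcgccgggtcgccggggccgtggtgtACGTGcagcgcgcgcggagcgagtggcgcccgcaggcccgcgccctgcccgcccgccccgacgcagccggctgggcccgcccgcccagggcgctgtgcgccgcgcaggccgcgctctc
Egln3: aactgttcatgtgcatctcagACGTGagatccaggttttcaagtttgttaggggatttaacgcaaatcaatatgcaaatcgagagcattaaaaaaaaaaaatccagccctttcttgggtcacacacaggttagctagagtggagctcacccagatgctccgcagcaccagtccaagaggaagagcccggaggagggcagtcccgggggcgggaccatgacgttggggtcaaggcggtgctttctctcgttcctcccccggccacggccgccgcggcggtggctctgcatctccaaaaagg
Vhl: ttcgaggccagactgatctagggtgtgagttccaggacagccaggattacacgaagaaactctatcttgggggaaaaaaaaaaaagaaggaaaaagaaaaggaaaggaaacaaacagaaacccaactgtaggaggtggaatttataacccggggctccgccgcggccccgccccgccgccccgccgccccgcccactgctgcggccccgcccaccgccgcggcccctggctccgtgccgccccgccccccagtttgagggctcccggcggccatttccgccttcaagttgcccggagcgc
Hif1an: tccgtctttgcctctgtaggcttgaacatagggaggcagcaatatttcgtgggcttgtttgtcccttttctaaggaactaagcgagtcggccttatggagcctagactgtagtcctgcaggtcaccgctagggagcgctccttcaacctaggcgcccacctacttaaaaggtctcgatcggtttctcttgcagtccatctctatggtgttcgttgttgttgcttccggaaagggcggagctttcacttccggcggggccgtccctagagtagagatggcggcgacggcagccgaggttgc
The Egln2 window held 5 stretches, the Egln1 window 2 and the Egln3 window 1, while the Vhl and Hif1an windows held 0. Of the windows not printed, Hif1a held 2, Arnt 1 and a second Egln2 start 1. At least 1 of the 2 cores occurred in 43.8% of 32851 promoter windows of the same length, with ACGTG in 19.6% and GCGTG in 32.4%. The forkhead letters GTAAACA, searched on both strands, were in 0 of the members' windows and in 3.65% of all windows. A match describes letters only.

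Values are RPM, the reads of a gene per 1000000 reads of its library. Depth, in units of 1000000 reads, was 13.9 to 23.2 in vivo, 14.7 to 22.8 in the culture course and 4.84 to 21.3 at D21. Between 2 and 5819 reads lay behind a member's value in a library, and the limit that a count of 0 allows (3 reads) was 0.129 to 0.619 RPM. Foxo3, the parent gene of the transgene, lay at 267 to 367 RPM in the 6 Tg libraries and 44.8 to 128 RPM in the 6 WT libraries of D21. The 2 genotypes did not overlap. The Foxo3 row does not separate transgene from endogenous reads. Germ cell and oocyte markers summed to at least 1895 RPM in every library. Of the 12 D21 libraries, WT normoxia replicate 2 was the lowest for Hif1a, Epas1, Arnt, Egln1 and Hif1an. D5 replicate 2 had 89.3 RPM of Hif1a, against 236 and 208 RPM in the other D5 libraries, and was also the lowest of the 3 for Epas1, Arnt, Vhl, Egln1 and Hif1an. The main member tests that rest on these 2 libraries are given with and without them. Level ranges, ratios and partner, target and marker values are given with all libraries only.

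Hif1a, the alpha subunit best known for the acute response to low oxygen, was at 89.3 RPM or more in every library. Its group means ran over a 2.33-fold range, from 107 RPM at E16.5 to 250.2 RPM at D10. Epas1, the second alpha subunit, ran over a 15.1-fold range, from 2.55 RPM at E14.5 to 38.7 RPM at D11. Arnt spanned 3.15-fold, from 24.5 RPM at D17 to 77.3 RPM at D10. Among the hydroxylases, Egln2 spanned 4.85-fold and Egln1 5.01-fold, and both were highest at E18.5. Egln3, a hydroxylase known for its induction by HIF, had at most 5.19 RPM in the in vivo libraries and spanned 28.2-fold, from 0.510 RPM at D13 to 14.4 RPM at D9. Hif1an spanned 2.46-fold, from 103 RPM in WT normoxia to 253 RPM in P6 small oocytes. The WT normoxia libraries had 127 and 78.3 RPM, the lower in replicate 2, and D5 came next at 106 RPM. Vhl spanned 5.04-fold, from 13.2 RPM in P6 large oocytes to 66.4 RPM at P3.

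**Figure D1:**
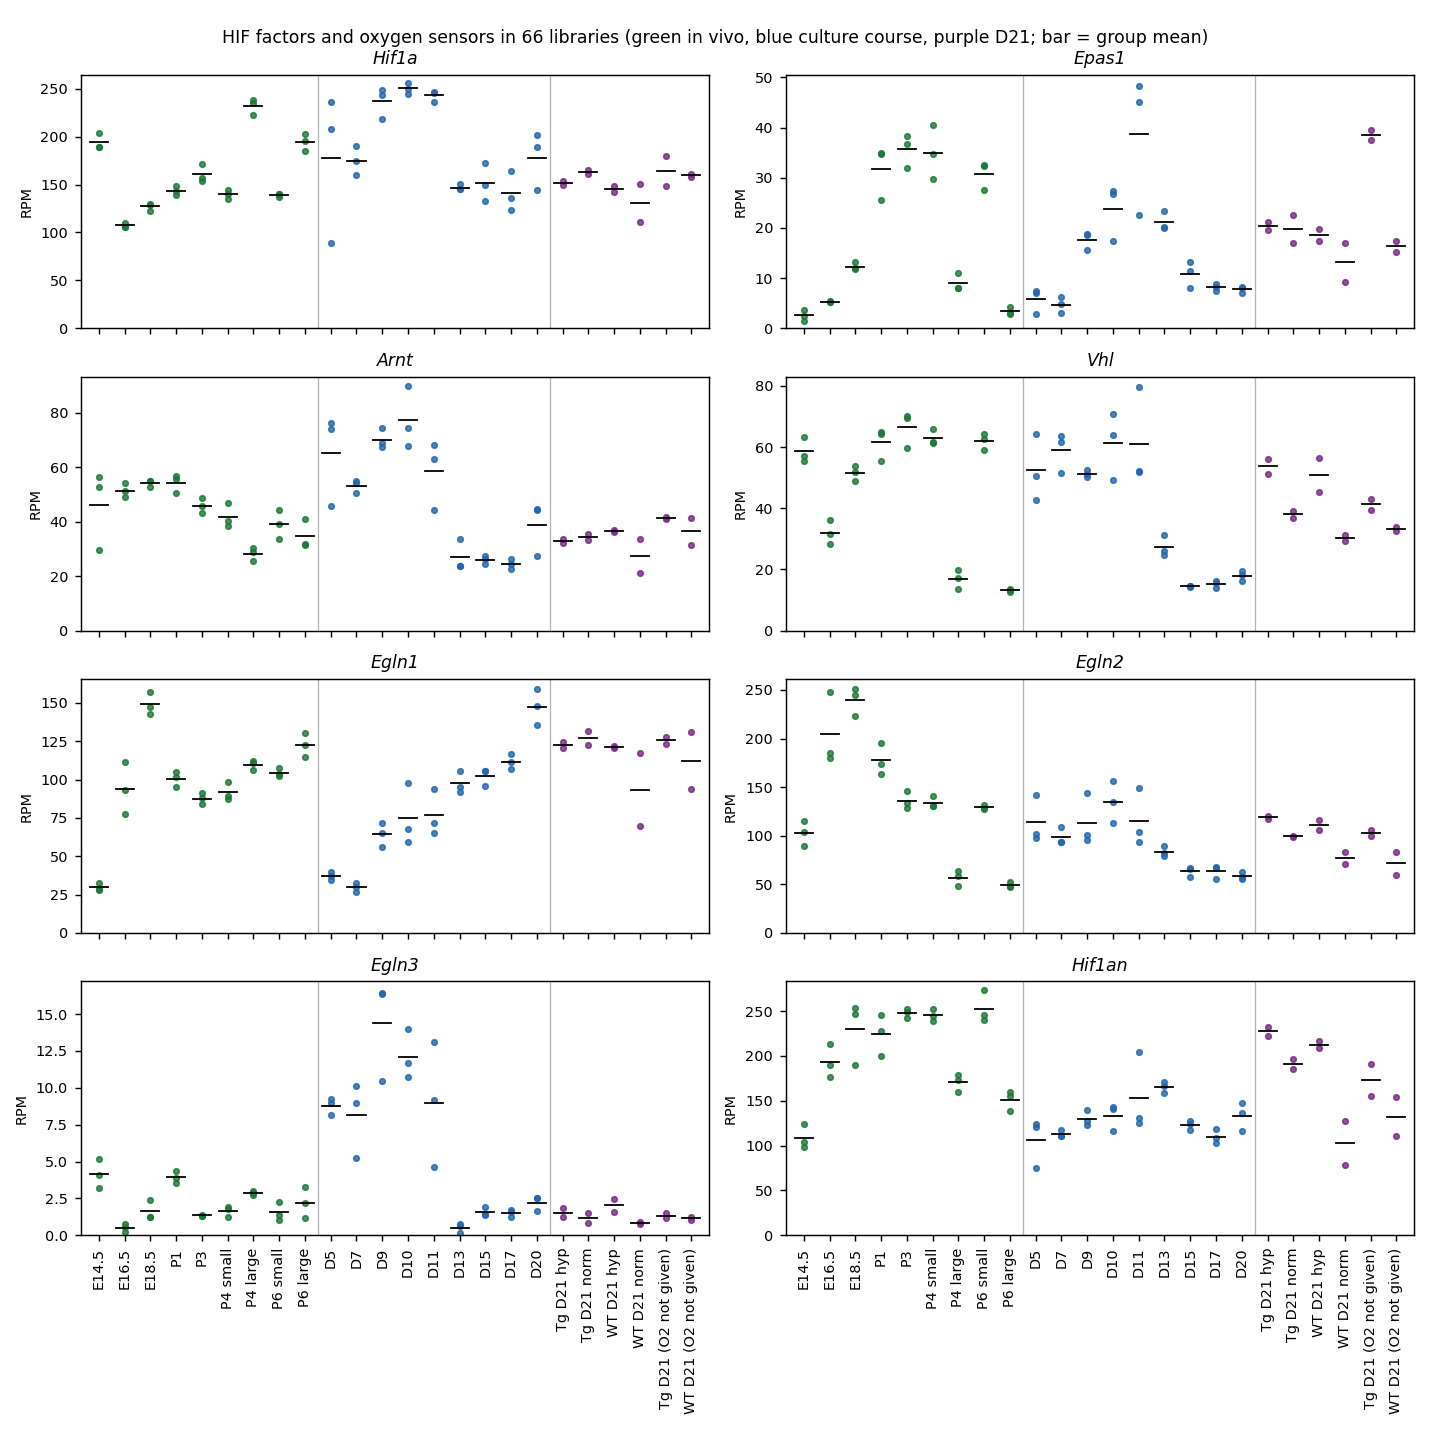
RPM of each member (linear axis) in all 66 libraries of 24 groups; points are libraries, bars are group means, green is in vivo, blue the culture course and purple D21. Vhl and Epas1 are lower in large than in small oocytes of P4 and P6, and Egln1 reaches 148 RPM at D20.

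When the 24 group means were ranked for each gene, most neighbours overlapped in their libraries. Of the 23 neighbouring pairs, 5 did not overlap for Vhl, 4 for Egln3, 3 each for Egln1 and Egln2, 2 for Hif1a, and 1 each for Epas1, Arnt and Hif1an. For Vhl the order opened with P3, P4 small and P6 small, between 66.4 and 61.97 RPM, and neighbours overlapped down to WT hypoxia at 50.8 RPM. The 5 lowest Vhl groups were D20, P4 large, D17, D15 and P6 large, between 17.9 and 13.2 RPM. D13, at 27.3 RPM, came next above them and did not overlap D20.

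Levels were compared between genes only per kilobase of merged exons. In P6 small oocytes Egln2 had the highest level of the 8, at 46.2 ± 0.844 RPM per kb (SD, n = 3). Hif1an followed at 38.3 ± 2.69, Egln1 at 29.1 ± 0.685, Hif1a at 23.6 ± 0.332 and Vhl at 20.7 ± 0.864 RPM per kb. In P6 large oocytes the order opened with Egln1 at 34.1 ± 2.20 and Hif1a at 33.01 ± 1.53 RPM per kb, whose libraries overlapped, and Vhl had 4.40 ± 0.172 RPM per kb. Epas1, Arnt and Egln3 were the 3 lowest in P6 small oocytes, at 5.51 ± 0.505, 4.88 ± 0.681 and 0.581 ± 0.232 RPM per kb. At E14.5 Egln2 had 36.7 ± 4.64 and Egln1 8.31 ± 0.696 RPM per kb, and at D20 Egln1 had 41.1 ± 3.21 and Egln2 20.9 ± 1.30 RPM per kb.

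The tests used limma on log2(RPM + 1), two-sided, with Benjamini-Hochberg adjustment over all genes tested and a threshold of 0.05. A log2 difference on this scale understates the change of low genes. A gene written as higher or lower, or as having risen or fallen, passed that threshold. All 8 members passed the filter on low values in every fit. "Other scalings" below are median-of-ratios and TMM scaling in limma, and the count tests edgeR and DESeq2.

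Between E14.5 and E18.5, when germ cells go through early meiosis, Egln1, Egln2, Epas1 and Hif1an rose while Hif1a fell. At E18.5, 4 of 8 members were higher (Egln1, Egln2, Epas1 and Hif1an) and 2 lower (Hif1a and Egln3), while 40.0% of all genes tested were higher and 30.0% lower. The median log2 difference of all genes was 0.14. Egln1 had 157, 143 and 148 RPM at E18.5, against 28.7, 28.1 and 32.7 RPM at E14.5. These groups lay far apart, with a log2 difference of 2.28 ± 0.093 (SE, adjusted p = 1.05e-16). Egln2 had 251, 223 and 245 RPM at E18.5, against 115, 89.5 and 104 RPM at E14.5, a log2 difference of 1.22 ± 0.11 (adjusted p = 3.71e-10). Both groups were again separate. Epas1 had 11.9, 13.2 and 11.8 RPM at E18.5, against 1.53, 2.55 and 3.58 RPM at E14.5, and rose by 1.95 (adjusted p = 7.57e-10). Hif1an averaged 230.1 ± 34.6 RPM at E18.5 and 109 ± 13.3 RPM at E14.5 (SD, n = 3 each).

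Hif1a averaged 127 ± 3.99 RPM at E18.5 and 194 ± 8.27 RPM at E14.5, and fell by 0.60 on the log2 scale (adjusted p = 1.92e-09). The E16.5 libraries, at 106, 106 and 109.9 RPM of Hif1a, lay below all libraries of both other ages. Vhl had 31.5, 28.4 and 36.1 RPM at E16.5, also below all libraries of both other ages. Its E18.5 to E14.5 difference was -0.18 with a 95% interval of -0.40 to 0.046 as deposited, and passed at -0.39 to -0.28 under the other scalings. Egln3 fell by 0.99 (adjusted p = 4.26e-04). For Arnt the estimate was 0.28 (interval -0.045 to 0.60), and it ran over -0.0066 to 0.45 when each library was left out. It passed without E14.5 replicate 2 or without E14.5 replicate 3. Markers of other cell types moved with this comparison, with 5 higher and 0 lower of 6 stroma markers, 4 higher and 0 lower of 8 granulosa markers, 2 higher and 0 lower of 5 endothelial markers and 3 higher and 2 lower of 6 blood and immune markers tested, and their part in it was not tested. Of 23 HIF partners 12 were higher and 5 lower, and of 36 HIF targets 11 were higher and 15 lower.

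At P3, against E18.5, the hydroxylases Egln1 and Egln2 were lower again. Egln1 had 91.4, 87.7 and 83.8 RPM at P3, against 157, 143 and 148 RPM at E18.5, and fell by 0.76 (adjusted p = 2.08e-07). Egln2 had 134, 128 and 146 RPM at P3, against 251, 223 and 245 RPM at E18.5, and fell by 0.81 (adjusted p = 1.01e-06). The P3 libraries lay below all E18.5 libraries in both genes. Hif1a rose by 0.33, Epas1 by 1.46 and Vhl by 0.35. Thus 3 members were higher and 2 lower, where 26.0% of all genes tested were higher and 32.3% lower. Epas1 averaged 35.7 ± 3.35 RPM at P3 and 12.3 ± 0.741 RPM at E18.5. Hif1an averaged 248 ± 5.22 RPM at P3 and 230.1 ± 34.6 RPM at E18.5, and its groups overlapped. Somatic and blood markers at P3 were called 0 higher and 4 lower of 6 stroma markers, 0 higher and 3 lower of 8 granulosa markers, 0 higher and 4 lower of 5 endothelial markers and 0 higher and 2 lower of 6 blood and immune markers tested, and their part was not tested.

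Small oocytes of P4 and P6 were set against large oocytes of the same age. At both ages Vhl, Epas1, Egln2 and Hif1an were higher in small oocytes, and Hif1a and Egln1 were lower, although the Hif1an calls did not hold under the other scalings. At P6, 4 of 8 members were higher and 2 lower, where 51.3% of all genes tested were higher and 22.1% lower. At P4, 5 were higher and 3 lower, where 48.7% were higher and 20.5% lower. At P6 the members' shares are near those of all genes. At P6 the median over all genes was a log2 difference of 0.41, and at P4 0.34. The P6 calls were 69.9% higher as deposited and 48.6% higher after median-of-ratios scaling, and the P4 calls 70.4% and 48.3%.

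Vhl had 62.5, 64.2 and 59.2 RPM in P6 small oocytes, against 13.7, 13.2 and 12.6 RPM in P6 large oocytes. It had 61.8, 66.02 and 61.5 RPM in P4 small oocytes, against 19.97, 13.7 and 17.1 RPM in P4 large oocytes. Small and large libraries were well apart at both ages. The log2 difference was 2.15 ± 0.11 at P6 (adjusted p = 4.11e-15) and 1.85 ± 0.11 at P4 (adjusted p = 1.63e-13). Under the other scalings it was 1.57 to 1.69 at P6 and 1.40 to 1.48 at P4.

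Hif1a had 137, 140.4 and 139.6 RPM in P6 small oocytes, against 185, 196 and 203 RPM in P6 large oocytes. It had 135, 139.9 and 144 RPM in P4 small oocytes, against 238, 235 and 223 RPM in P4 large oocytes. No small library reached a large one, and Hif1a fell by 0.48 at P6 (adjusted p = 7.82e-08) and by 0.73 at P4 (adjusted p = 8.51e-11). Under the other scalings the fall was 1.03 to 1.10 at P6 and 1.15 to 1.21 at P4. Divided by Vhl in the same library, Hif1a stood at 2.24 ± 0.101 in P6 small oocytes and 14.8 ± 1.26 in P6 large oocytes. The ratio was 2.22 ± 0.114 in P4 small and 14.01 ± 2.72 in P4 large oocytes. A ratio within a library does not move with library scaling and is given as a description.

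Epas1 had 27.5, 32.3 and 32.6 RPM in P6 small oocytes, against 2.93, 2.99 and 4.17 RPM in P6 large oocytes. It had 40.5, 29.8 and 34.7 RPM in P4 small oocytes, against 8.11, 7.98 and 10.999 RPM in P4 large oocytes. The P6 large libraries were the lowest of the 4 groups. The log2 difference was 2.87 ± 0.18 at P6 (adjusted p = 3.50e-13) and 1.85 ± 0.18 at P4 (adjusted p = 2.27e-09). With the other scalings it was at 2.37 to 2.64 at P6 and 1.41 to 1.53 at P4. A test of whether the P6 difference differed from the P4 difference, chosen after these values were seen, gave 1.03 ± 0.26 for Epas1 (adjusted p = 0.0156, limma), and the other 7 members did not pass, where 5.88% of all genes tested were higher and 2.64% lower. The Epas1 call was lost without P4 large replicate 3 (0.89, adjusted p = 0.0600).

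The hydroxylase genes divided by size. Egln2 averaged 129 ± 2.36 RPM in P6 small and 49.5 ± 2.83 RPM in P6 large oocytes, a log2 difference of 1.37 ± 0.11 (adjusted p = 2.98e-11). At P4 it averaged 134 ± 6.27 RPM in the small size, and 56.99 ± 7.76 RPM in the large size (1.23, adjusted p = 4.08e-10). Egln2 under the other scalings was at 0.77 to 0.84 at P6 and 0.76 to 0.81 at P4, and passed. Egln1 had 107, 103 and 104 RPM in P6 small oocytes, against 115, 123 and 130.4 RPM in P6 large oocytes, and fell by 0.22 (adjusted p = 0.0333). That P6 call was lost without small replicate 2, small replicate 3, large replicate 2 or large replicate 3 (log2 difference -0.27 to -0.18, adjusted p 0.0237 to 0.133 over the 6 fits). At P4 Egln1 fell by 0.26 (adjusted p = 0.0167), and the call was lost without small replicate 1 or small replicate 2 (adjusted p 0.0120 to 0.0633). Under the other scalings Egln1 fell by 0.77 to 0.84 at P6 and by 0.68 to 0.73 at P4. The Egln1 to Egln2 ratio was 0.808 ± 0.00430 in P6 small and 2.48 ± 0.220 in P6 large oocytes.

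Egln3 had 1.26, 1.94 and 1.75 RPM in P4 small oocytes, against 2.88, 2.70 and 2.99 RPM in P4 large oocytes, and fell by 0.55 (adjusted p = 0.0364). Under the other scalings the P4 estimate was -1.26 to -0.88 and passed (adjusted p 0.00135 to 0.0125). The call as deposited was lost with no filter (adjusted p = 0.0526) and with a pseudocount of 0.1 (adjusted p = 0.0822). It held in 1 of 6 fits with a library left out, the one without P4 small replicate 2 (-0.63 to -0.44, adjusted p 0.0364 to 0.138). At P6 the Egln3 estimate was -0.31 (adjusted p = 0.232) as deposited and -1.14 to -0.68 under the other scalings, where it passed. It also passed without P6 large replicate 1 (-0.57). Hif1an had 240.1, 245 and 273 RPM in P6 small oocytes, against 155, 139 and 160.2 RPM in P6 large oocytes. It was higher by 0.74 ± 0.10 at P6 and 0.52 ± 0.10 at P4 as deposited. Under the other scalings it was at 0.13 to 0.20 at P6 (adjusted p 0.0738 to 0.257) and 0.049 to 0.10 at P4 (adjusted p 0.367 to 0.691), so neither call held. Arnt was higher in P4 small oocytes by 0.54 as deposited and was at 0.084 to 0.14 under the other scalings (adjusted p 0.431 to 0.656). At P6 the Arnt estimate of 0.16 (adjusted p = 0.369) turned to -0.45 to -0.37 under them and passed as lower (adjusted p 0.00764 to 0.0310).

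**Figure D2:**
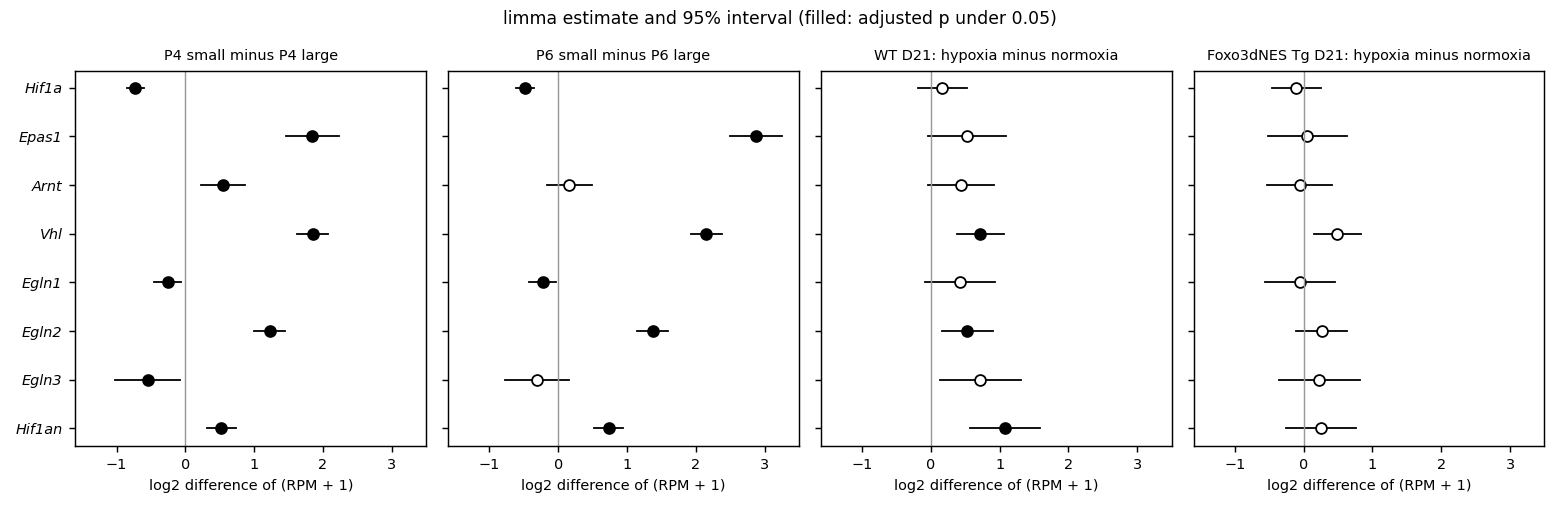
Log2 differences of (RPM + 1) from limma with 95% intervals for each member in 4 comparisons; filled points passed an adjusted p of 0.05. Vhl, Epas1 and Egln2 lie right of 0 and Hif1a left of 0 in both small-minus-large panels, and in WT hypoxia Hif1an (1.08), Vhl (0.72) and Egln2 (0.53) passed.

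Other genes of the pathway came from lists of 23 HIF partners and 39 known HIF targets. In P6 small oocytes 15 of 23 partners were higher and 6 lower (median log2 difference 0.66, against 0.41 for all genes). Gnb2l1, which encodes RACK1, a promoter of oxygen-independent HIF1A degradation, averaged 764 ± 21.1 RPM in P6 small and 128 ± 6.97 RPM in P6 large oocytes. Crebbp, a HIF coactivator, averaged 105 ± 8.61 RPM in P6 small and 33.6 ± 2.49 RPM in P6 large oocytes. Siah2, a ubiquitin ligase for EGLN proteins, averaged 32.8 ± 1.25 RPM in P6 small and 280.0 ± 10.8 RPM in P6 large oocytes, and fell by 3.05 (adjusted p = 5.10e-16). Hif3a, another alpha subunit, averaged 8.41 ± 2.22 RPM in P6 small and 25.1 ± 1.08 RPM in P6 large oocytes.

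Of 36 targets tested, 19 were higher and 7 lower in P6 small oocytes (median 0.81). Ndrg1, a stress-response gene, averaged 43.8 ± 4.25 RPM in P6 small and 1.39 ± 0.514 RPM in P6 large oocytes. Hk1, a hexokinase, averaged 17.5 ± 1.33 RPM in P6 small and 0.147 ± 0.0752 RPM in P6 large oocytes. Opposite to these, Car9, a carbonic anhydrase, averaged 0.0964 ± 0.115 RPM in P6 small and 69.2 ± 8.33 RPM in P6 large oocytes. Ddit4, an inhibitor of mTORC1 signalling, averaged 1.73 ± 0.564 RPM in P6 small and 80.5 ± 5.12 RPM in P6 large oocytes. At P4, 16 of 23 partners were higher and 5 lower, and 21 of 36 targets were higher and 5 lower.

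Somatic markers differed between the sizes. Granulosa markers summed to 8.11 to 18.2 RPM in P6 small and 60.4 to 68.2 RPM in P6 large oocytes, where Nr5a2 alone averaged 61.2 RPM. Stroma markers summed to 6.63 to 29.04 RPM in P6 small and 1.39 to 1.78 RPM in P6 large oocytes, and the P6 calls were 6 higher and 0 lower of 6 stroma markers, 3 higher and 2 lower of 8 granulosa markers, 0 higher and 2 lower of 5 endothelial markers and 0 higher and 2 lower of 6 blood and immune markers tested. At P4 granulosa markers summed to 15.4 to 25.9 RPM in small and 40.7 to 49.2 RPM in large oocytes, and stroma markers to 9.18 to 18.4 RPM in small and 1.73 to 3.36 RPM in large oocytes. The P4 calls were 5 higher and 0 lower of 6 stroma markers, 5 higher and 2 lower of 8 granulosa markers, 0 higher and 1 lower of 5 endothelial markers and 0 higher and 2 lower of 6 blood and immune markers tested. The part of these markers in the results was not tested. Endothelial markers, of interest because Epas1 is well known in endothelium, summed to 10.1 to 11.97 RPM in P6 small and 26.4 to 33.8 RPM in P6 large oocytes. Of the 8 listed, 6 averaged under 1 RPM in each size, so the sums rest on the others, which are not named here. Among the low ones Emcn was at 0 in both sizes, and Cdh5 and Esam were at 0 in P6 large oocytes.

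In culture, Epas1 and Egln1 were higher at D11 than at D5. In total, 4 of 8 members were called higher and 0 lower, where 31.2% of all genes tested were higher and 15% lower. The median log2 difference of all genes was 0.17. Of the genes called, 67.5% were higher in the deposited values and 56.3% after median-of-ratios scaling. Epas1 had 22.6, 45.1 and 48.2 RPM at D11, against 7.00, 2.94 and 7.51 RPM at D5, and rose by 2.55 ± 0.28 (adjusted p = 1.11e-07). Egln1 had 71.8, 65.4 and 94.04 RPM at D11, against 37.3, 34.7 and 39.9 RPM at D5, and rose by 1.01 ± 0.15 (adjusted p = 8.06e-06). Every D11 library lay above every D5 library in both genes. Both calls held in all 6 fits with a library left out (2.19 to 2.89 for Epas1, 0.86 to 1.12 for Egln1). Hif1a and Hif1an were called at 0.57 and 0.52, and both calls were lost without D5 replicate 2. Without it the estimate was 0.13 for Hif1a (adjusted p = 0.426) and 0.29 for Hif1an (adjusted p = 0.118). Both were also lost in a fit of only those groups. The Hif1an call was lost without D11 replicate 3 (0.30), under TMM (adjusted p = 0.0600) and in edgeR (adjusted p = 0.0541), and the Hif1a call with no filter, without any single D11 library and under the other scalings (0.34 to 0.44, adjusted p 0.0768 to 0.178).

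Somatic markers moved with this comparison. Stroma markers summed to 187 to 1833 RPM at D11 and 4.38 to 16.6 RPM at D5, and granulosa markers to 268 to 477 RPM at D11 and 38.2 to 52.4 RPM at D5. In such bulk samples, fewer cells of a type and less RNA per cell cannot be told apart. The D11 calls were 8 higher and 0 lower of 8 stroma markers, 7 higher and 0 lower of 8 granulosa markers, 4 higher and 1 lower of 8 endothelial markers and 3 higher and 0 lower of 4 blood and immune markers tested. The part of somatic RNA in the Epas1 and Egln1 values was not tested. Among targets 12 of 38 were higher and 7 lower, and among partners 5 were higher and 4 lower.

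Between D11 and D13, the first day labelled oocyte, levels are set side by side with no test, and the genes given per library were chosen after their values were seen. Vhl had 31.2, 25.9 and 24.7 RPM at D13, against 79.6, 52.01 and 51.7 RPM at D11. Egln3 had 0.116, 0.637 and 0.778 RPM at D13, against 13.1, 9.19 and 4.63 RPM at D11. Hif1a had 151, 145 and 145 RPM at D13, against 246, 236 and 247 RPM at D11. In all 3 genes every D13 library lay below every D11 library as deposited, and so it was for Arnt and Egln2. The share of all genes that lay lower at D13 was not computed. At D20 against D11, 55.1% of all genes tested were lower. Epas1 averaged 21.2 ± 1.91 RPM at D13 and 38.7 ± 13.99 RPM at D11, and its libraries overlapped. Egln1 averaged 97.7 ± 7.27 RPM at D13 and 77.1 ± 15.03 RPM at D11, and Hif1an 165 ± 6.16 RPM at D13 and 153 ± 44.2 RPM at D11, again with overlap. Stroma markers summed to 3.48 to 27.2 RPM and granulosa markers to 20.2 to 29.1 RPM at D13. The part of these markers was not tested.

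At D20, against D11, 5 members were lower (Epas1, Vhl, Egln3, Egln2 and Arnt) and Egln1 was higher. Among all genes 55.1% were lower and 22.5% higher. Their median log2 difference was -0.66, which the other scalings change. Among genes called in this comparison, 29.05% were higher in the deposited values and 46.1% after median-of-ratios scaling. Vhl had 16.2, 19.5 and 18.1 RPM at D20, against 79.6, 52.01 and 51.7 RPM at D11, and fell by 1.69 (adjusted p = 2.48e-09), or by 1.04 to 1.12 under the other scalings. Epas1 had 8.01, 7.12 and 8.14 RPM at D20, against 22.6, 45.1 and 48.2 RPM at D11, and fell by 2.11 (adjusted p = 3.29e-07), or by 1.48 to 1.67 under the other scalings. Both genes were well below their D11 levels. Egln3 fell by 1.55 (adjusted p = 2.48e-05), or by 1.01 to 1.37 under the other scalings. Egln1 had 148, 136 and 159 RPM at D20, against 71.8, 65.4 and 94.04 RPM at D11, and rose by 0.94 (adjusted p = 4.90e-06), or by 1.58 to 1.62 under the other scalings.

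The remaining members depended on the scale at D20. Egln2 fell by 0.94 as deposited, and was at -0.33 to -0.27 under the other scalings (adjusted p 0.129 to 0.185). Arnt fell by 0.59 as deposited and was at 0.042 to 0.10 under them. The Arnt call was also lost in a fit of only those groups and without D11 replicate 1 or D20 replicate 2 (leave-one-out estimates -0.77 to -0.36). Hif1a, at -0.46 as deposited (adjusted p = 0.0539), was at 0.18 to 0.24 under the other scalings. It passed as lower without D20 replicate 1 (-0.56) and in a fit of only those groups (adjusted p = 0.0319). Hif1an, at -0.17, was at 0.45 to 0.50 under them and passed (adjusted p 0.00760 to 0.0140). The Hif1a to Vhl ratio was 4.14 ± 0.916 at D11, 5.43 ± 0.543 at D13 and 10.1 ± 2.54 at D20. The Egln1 to Egln2 ratio was 0.305 ± 0.0559 at D7, 1.17 ± 0.108 at D13 and 2.53 ± 0.325 at D20.

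Among targets 24 of 38 were lower and 7 higher at D20 (median -1.65). Car9 averaged 121 ± 5.64 RPM at D20 and 4.37 ± 3.43 RPM at D11. Ldha, which makes lactate, averaged 0.805 ± 0.169 RPM at D20 and 60.7 ± 40.3 RPM at D11. Among partners 7 of 23 were higher and 12 lower. Siah2 averaged 295 ± 37.2 RPM at D20 and 34.9 ± 8.55 RPM at D11. Arnt2, a relative of Arnt, averaged 0.226 ± 0.0984 RPM at D20 and 27.9 ± 10.6 RPM at D11. Stroma markers summed to 1.63 to 3.19 RPM at D20 and 187 to 1833 RPM at D11, and granulosa markers to 71.5 to 79.9 RPM at D20 and 268 to 477 RPM at D11. The D20 calls were 0 higher and 8 lower of 8 stroma markers, 2 higher and 6 lower of 8 granulosa markers, 2 higher and 4 lower of 8 endothelial markers and 0 higher and 4 lower of 4 blood and immune markers tested, and the part of these markers in the falls was not tested.

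**Figure D3:**
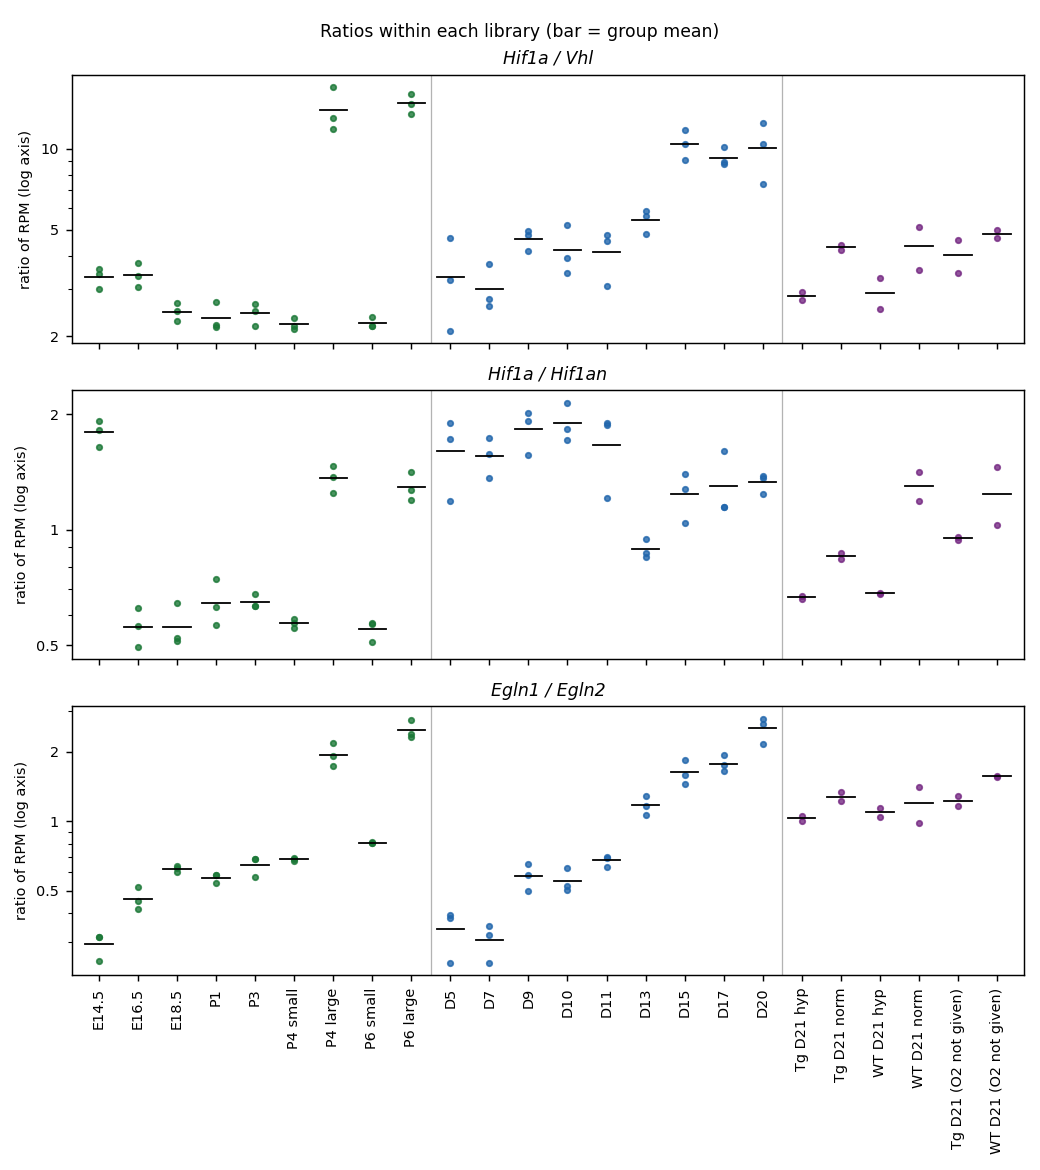
Ratios of RPM within each library (log axes) for Hif1a over Vhl, Hif1a over Hif1an and Egln1 over Egln2 in 24 groups; points are libraries and bars are group means, green in vivo, blue culture course, purple D21. Mean Hif1a over Vhl is 2.24 in P6 small and 14.8 in P6 large oocytes, and mean Egln1 over Egln2 is 1.17 at D13 and 2.53 at D20.

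Cultured D20 oocytes were set against in vivo P6 oocytes in a fit of both courses, where culture, strain and age differ together and cannot be told apart. Against P6 large oocytes 2 members were higher and 0 lower, where 9.62% of all genes tested were higher and 4.59% lower. Of all calls here, 67.7% were higher in the deposited values and 53.7% after median-of-ratios scaling. Epas1 had 8.01, 7.12 and 8.14 RPM at D20, against 2.93, 2.99 and 4.17 RPM in P6 large oocytes, and was higher by 1.02 ± 0.24 (adjusted p = 0.00263). Vhl averaged 17.9 ± 1.66 RPM at D20 and 13.2 ± 0.517 RPM in P6 large oocytes (0.41, adjusted p = 0.0425). The Vhl call held in 1 of 6 fits with a library left out, the one without D20 replicate 1 (0.35 to 0.48, adjusted p 0.0370 to 0.181), and in 0 of the other scalings (0.34 to 0.37).

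Against P6 small oocytes 4 members were lower at D20 (Epas1, Vhl, Egln2 and Hif1an) and Egln1 was higher, where 43.4% of all genes tested were lower and 23.4% higher. The median of all genes was -0.27. Of the genes called, 35.1% were higher in the deposited values and 52.96% after median-of-ratios scaling. Vhl fell by 1.74 (adjusted p = 1.11e-14), Epas1 by 1.86 (adjusted p = 5.12e-09) and Egln2 by 1.13 (adjusted p = 5.75e-09). Hif1a had 201, 144 and 189 RPM at D20, against 137, 140.4 and 139.6 RPM in P6 small oocytes. Its estimate was 0.34 (adjusted p = 0.0604) as deposited and 0.81 to 0.89 under the other scalings, where it passed, and it also passed without D20 replicate 2 (0.49) and in a fit of only those groups (adjusted p = 0.0250). Arnt, at -0.031 as deposited, was at 0.43 to 0.52 under them and passed, as did Egln3, at 0.35 as deposited and 0.67 to 1.06 under them.

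At D21 the oxygen comparison asks whether the messengers of the machinery itself changed in 5% oxygen. In WT oocytes Vhl, Hif1an and Egln2 were higher in hypoxia, so 3 of 8 members were higher and 0 lower, where 15.9% of all genes tested were higher and 6.55% lower. Hif1a, Epas1, Arnt, Egln1 and Egln3 did not pass. The median log2 difference of all genes was 0.14. Among genes called in this comparison, 70.9% were higher in the deposited values and 52.6% after median-of-ratios scaling.

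Vhl had 56.4 and 45.2 RPM in WT hypoxia, against 29.4 and 31.3 RPM in WT normoxia, a log2 difference of 0.72 ± 0.15 (adjusted p = 0.0149). Hif1an had 208 and 217 RPM in WT hypoxia, against 127 and 78.3 RPM in WT normoxia, a log2 difference of 1.08 ± 0.23 (adjusted p = 0.0141). Egln2 had 116 and 106 RPM in WT hypoxia, against 83.5 and 70.6 RPM in WT normoxia, a log2 difference of 0.53 ± 0.17 (adjusted p = 0.0464). Both hypoxic libraries were above both normoxic ones in all 3 genes. The same held for Epas1, Arnt, Egln1 and Egln3, which did not pass. The share of all genes that separate in this way was not computed.

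Without WT normoxia replicate 2 the estimates were 0.76 for Vhl (adjusted p = 0.0300), 0.74 for Hif1an (adjusted p = 0.0488) and 0.41 for Egln2 (adjusted p = 0.173). Without WT hypoxia replicate 1 they were 0.56, 1.11 and 0.46, and without WT hypoxia replicate 2 0.87, 1.05 and 0.59, and none of the 3 passed in either fit. Without WT normoxia replicate 1, which leaves only replicate 2, the estimates were 1.43 for Hif1an and 0.65 for Egln2. Hif1a, Epas1, Arnt and Egln1 then stood at 0.39, 0.94, 0.76 and 0.79. Without WT normoxia replicate 2 the latter genes were at -0.053, 0.11, 0.12 and 0.045. Under the other scalings Vhl was at 0.51 to 0.53 (adjusted p 0.0150 to 0.0439), Hif1an at 0.86 to 0.90 (adjusted p 1.61e-04 to 0.0110) and Egln2 at 0.32 to 0.34 (adjusted p 0.0469 to 0.105), where DESeq2 alone kept the Egln2 call. The Egln2 call was also lost with no filter (adjusted p = 0.0577), and all 3 calls in a fit of only those 4 libraries (Vhl adjusted p = 0.128, Hif1an adjusted p = 0.110, Egln2 adjusted p = 0.181).

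Hif1a had 142 and 148 RPM in WT hypoxia, against 151 and 111 RPM in WT normoxia. These values overlapped, and the log2 difference was 0.17 with a 95% interval of -0.19 to 0.53. It was -0.047 to -0.020 under the other scalings and -0.053 without WT normoxia replicate 2. Egln3, known as strongly HIF-induced in many cell types, had 1.60 and 2.46 RPM in WT hypoxia, against 0.754 and 0.893 RPM in WT normoxia. Its log2 difference was 0.72 with an interval of 0.13 to 1.31 (adjusted p = 0.0777). Egln1 had 122 and 121 RPM in WT hypoxia, against 117 and 69.5 RPM in WT normoxia (0.42, interval -0.090 to 0.93). Epas1 had 19.8 and 17.5 RPM in WT hypoxia, against 17.1 and 9.23 RPM in WT normoxia (0.53, interval -0.043 to 1.10). In these last 2 genes the lower normoxic value came from replicate 2. Arnt had 36.8 and 36.2 RPM in WT hypoxia, against 33.6 and 21.1 RPM in WT normoxia.

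In Tg oocytes 0 of 8 members passed in hypoxia against normoxia by limma, where 1.02% of all genes tested were called in either direction. Vhl was the 1 member at an unadjusted p under 0.05, and edgeR and DESeq2 called 0 members. Vhl had 51.3 and 56.2 RPM in Tg hypoxia, against 39.2 and 36.8 RPM in Tg normoxia, with a log2 difference of 0.49 and an interval of 0.15 to 0.83 (limma adjusted p = 0.182). Hif1an had 222 and 233 RPM in Tg hypoxia, against 196 and 185 RPM in Tg normoxia (0.25, interval -0.26 to 0.76). Egln2 had 117 and 120.5 RPM in Tg hypoxia, against 99.9 and 98.5 RPM in Tg normoxia (0.26, interval -0.11 to 0.63). The hypoxic libraries were above the normoxic ones in these 3 genes, and how many of all genes separate so was not computed. A limma fit of these 4 libraries alone called all 3 members, among 3854 genes called in that fit. Hif1a had 149 and 153 RPM in Tg hypoxia, against 165 and 161 RPM in Tg normoxia (-0.11, interval -0.47 to 0.25). Its libraries did not overlap either, and the hypoxic ones were the lower.

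The oxygen change in Tg minus that in WT was tested directly, and limma called 0.0% of all genes and 0 members. Hif1an was the 1 member at an unadjusted p under 0.05 (-0.83, interval -1.55 to -0.11, limma adjusted p = 0.647), and edgeR and DESeq2 called 0 members. Without WT normoxia replicate 1 the estimates were -1.18 for Hif1an, -0.84 for Egln1 and -0.82 for Arnt. Without WT normoxia replicate 2 they were -0.48, -0.095 and -0.18. For Vhl the difference of the changes was -0.23 with an interval of -0.71 to 0.26.

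Averaged over both genotypes, Vhl, Hif1an and Egln2 were higher in hypoxia and 0 members lower, where 16.2% of all genes tested were higher and 9.14% lower. Of all calls here, 63.9% were higher in the deposited values and 47.3% after median-of-ratios scaling. This comparison shares its libraries with the WT and Tg ones. Vhl was higher by 0.60 ± 0.11 (adjusted p = 0.00566), with 4 of 4 hypoxic libraries above all 4 normoxic ones. It passed in all 8 fits with a library left out (0.52 to 0.68). Hif1an was higher by 0.67 ± 0.16 (adjusted p = 0.0172) and passed in 3 of 8 such fits, those without WT normoxia replicate 1, WT normoxia replicate 2 or Tg normoxia replicate 1 (0.49 to 0.84, adjusted p 0.00136 to 0.0742). Egln2 was higher by 0.39 ± 0.12 (adjusted p = 0.0355) and passed in 1 of 8, the fit without WT normoxia replicate 1 (0.33 to 0.45, adjusted p 0.0127 to 0.135). Its averaged call was also lost under median-of-ratios (adjusted p = 0.0639), TMM (adjusted p = 0.0602) and edgeR (adjusted p = 0.0627). The Hif1a difference was 0.030 with an interval of -0.22 to 0.29.

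The Hif1a to Vhl ratio was 2.52 to 3.29 in WT hypoxia, against 3.54 to 5.13 in WT normoxia. In Tg it was 2.73 to 2.91 in hypoxia, against 4.21 to 4.38 in normoxia. The Hif1a to Hif1an ratio was 0.682 to 0.686 in WT hypoxia, against 1.19 to 1.42 in WT normoxia. In Tg it was 0.660 to 0.673 in hypoxia, against 0.839 to 0.870 in normoxia. Both ratios were lower in every hypoxic library than in the normoxic ones of the same genotype. Side by side and with no test, the 4 hypoxic libraries had 45.2 to 56.4 RPM of Vhl and 208 to 233 RPM of Hif1an, and P6 small oocytes had 59.2 to 64.2 RPM of Vhl and 240.1 to 273 RPM of Hif1an. For Epas1 it was 17.5 to 21.3 RPM in the hypoxic libraries and 27.5 to 32.6 RPM in P6 small oocytes. Germ cells of E14.5 had 55.6 to 63.2 RPM of Vhl. Culture, strain and age differ together here and cannot be told apart.

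**Figure D4:**
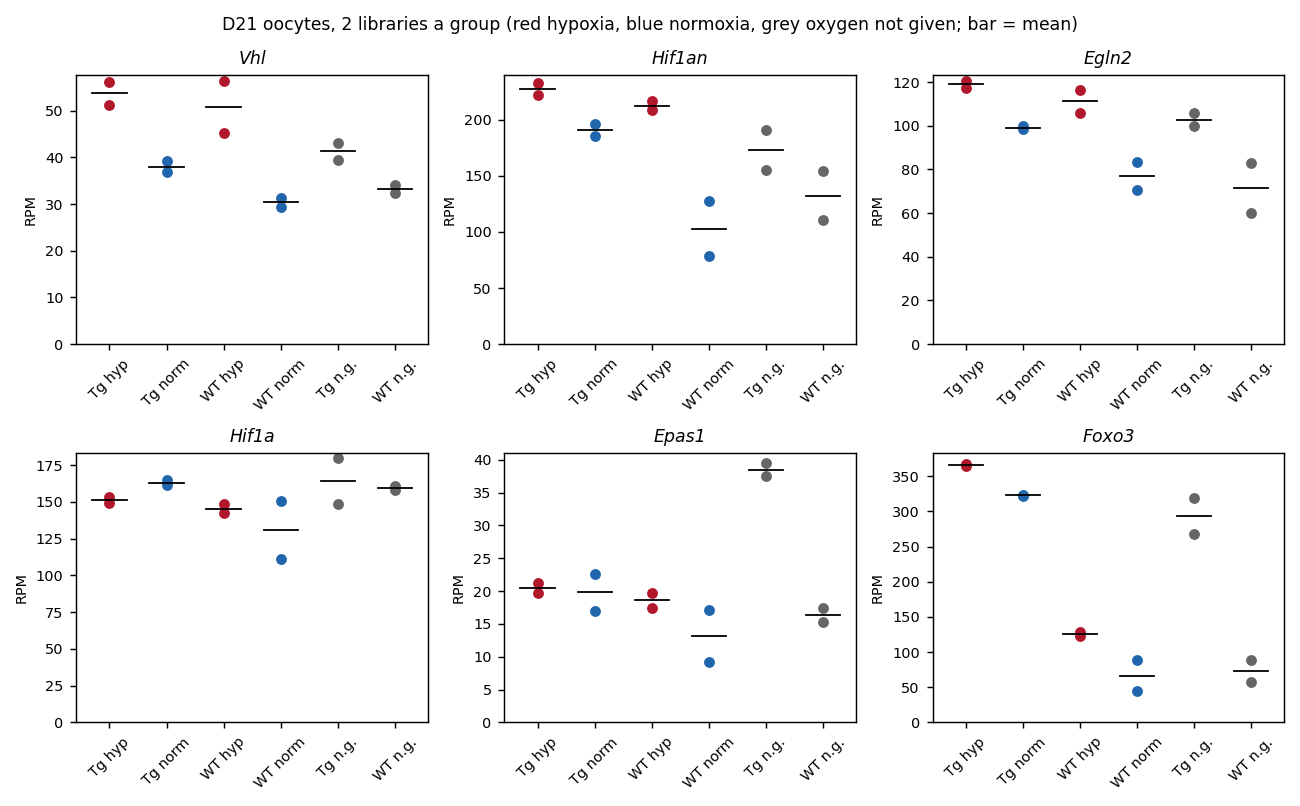
RPM (linear axis) of 5 members and of Foxo3 in the 12 D21 libraries, as Foxo3dNES Tg or WT in hypoxia, normoxia or with oxygen not given (n.g.); points are libraries and bars are means. Vhl is at 45.2 to 56.4 RPM in hypoxia and 29.4 to 39.2 RPM in normoxia, while Hif1a overlaps in WT.

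The target list gives the response of other genes. In WT hypoxia 14 of 37 targets were higher and 1 lower (median log2 difference 0.52, against 0.14 for all genes). Ldha averaged 199 ± 61.6 RPM in WT hypoxia and 27.5 ± 3.00 RPM in WT normoxia (2.78, adjusted p = 0.00486). Pdk1, which limits entry of pyruvate into mitochondrial oxidation, averaged 130.2 ± 10.7 RPM in WT hypoxia and 49.2 ± 14.3 RPM in WT normoxia. Car9, a widely used hypoxia marker in tumours, averaged 28.3 ± 0.890 RPM in WT hypoxia and 62.7 ± 4.91 RPM in WT normoxia (-1.12, adjusted p = 0.0234). In Tg hypoxia 3 of 37 targets were higher (Ldha, Pgk1 and Eno1) and 0 lower. Ldha averaged 164 ± 70.6 RPM in Tg hypoxia and 31.1 ± 10.1 RPM in Tg normoxia.

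Among 23 partners 4 were higher and 2 lower in WT hypoxia. The coactivator Ep300 averaged 211 ± 7.99 RPM in WT hypoxia and 88.9 ± 48.4 RPM in WT normoxia. Cul2, the scaffold of the VHL ligase, averaged 92.1 ± 0.809 RPM in WT hypoxia and 66.1 ± 9.44 RPM in WT normoxia. Tceb1, which encodes elongin C of the same ligase, averaged 151 ± 6.91 RPM in WT hypoxia and 352 ± 176 RPM in WT normoxia, and was lower. In Tg hypoxia 0 partners were called.

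Granulosa markers moved with oxygen. They summed to 24.3 to 31.9 RPM in WT hypoxia, against 134 to 295 RPM in WT normoxia, and to 21.5 to 42.3 RPM in Tg hypoxia, against 153 to 224 RPM in Tg normoxia. In the averaged comparison 7 of 7 tested were lower. Summed germ cell and oocyte markers were 7224 to 9552 RPM in hypoxia and 10985 to 19858 RPM in normoxia. Of these 6 markers, 2 were called higher and 2 lower in the averaged comparison. Endothelial markers were higher for 4 of 8 tested, with sums of 15.3 to 45.3 RPM in hypoxia and 9.46 to 22.2 RPM in normoxia. The part of these shifts in the Vhl, Hif1an and Egln2 values was not tested.

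Tg against WT gave 0 called members by limma in normoxia, where 0.00695% of all genes tested were called. Hif1an and Epas1 were the 2 members at an unadjusted p under 0.05. Hif1an had 196 and 185 RPM in Tg normoxia, against 127 and 78.3 RPM in WT normoxia (0.93, interval 0.42 to 1.44, limma adjusted p = 0.108). DESeq2 called it, at 0.72, and edgeR called 0 members. For Hif1an, Epas1, Arnt, Egln1 and Hif1a, leaving out WT normoxia replicate 2 gave the lowest estimate and leaving out replicate 1 the highest. These ran over 0.58 to 1.28, 0.19 to 1.01, 0.031 to 0.68, 0.11 to 0.86 and 0.11 to 0.55, in that order. In hypoxia limma also called 0 members and 0.00695% of all genes, 0 members had an unadjusted p under 0.05, and edgeR and DESeq2 called 0. Hif1an had 222 and 233 RPM in Tg hypoxia, against 208 and 217 RPM in WT hypoxia (0.098, interval -0.41 to 0.61).

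In the 4 D21 libraries with no oxygen label Epas1 was higher in Tg, the 1 member called, where 6.25% of all genes tested were higher. Epas1 had 39.6 and 37.5 RPM in Tg, against 15.3 and 17.4 RPM in WT, a log2 difference of 1.19 ± 0.26 (adjusted p = 0.0358). The median of all genes was 0.21. Of the genes called, 91.2% were higher in the deposited values and 76.6% after median-of-ratios scaling. The Epas1 call was lost in edgeR (adjusted p = 0.0602), with no filter (adjusted p = 0.0518) and in a fit of only those 4 libraries (adjusted p = 0.0922). It was also lost without WT replicate 1 (1.11, adjusted p = 0.0994), Tg replicate 1 (1.16, adjusted p = 0.132) or Tg replicate 2 (1.23, adjusted p = 0.183). Egln2 passed without WT replicate 2, at 0.76. Granulosa markers summed to 477 to 722 RPM in Tg and 240.3 to 291 RPM in WT, with 0 of 7 tested called, and their part was not tested. Endothelial markers summed to 20.4 to 21.3 RPM in Tg and 18.6 to 19.6 RPM in WT, with 0 of 8 tested called. Of these 8, 4 averaged under 1 RPM in Tg and 5 in WT, and Emcn was at 0 in both.

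Genes with the pattern most like each member were sought by Pearson's r of group mean log2(RPM + 1) over the 24 groups. The search covered genes with a highest group mean of at least 20 RPM, and r is a description, since groups share culture, strain and depth. For Hif1a they were Add3 (0.88), Gas2l3 (0.85) and Ccnf (0.80), and for Epas1 Wsb2 (0.92), Ifngr2 (0.92) and Ech1 (0.92). For Arnt they were E2f8 (0.96), Lman1 (0.96) and Zfp740 (0.95). For Vhl they included Btbd1 (0.96) and Npnt (0.95). For Egln1 they were Poll (0.95), Ssh1 (0.95) and Fam83f (0.95), and for Egln2 Rxrb (0.96), Minpp1 (0.96) and Armc9 (0.95). For Egln3 they were E2f7 (0.94), Prdm14 (0.91) and Nanog (0.90), of which Prdm14 and Nanog are known as germ cell and pluripotency regulators. For Hif1an they were Marf1 (0.94), Rfc1 (0.93) and Drosha (0.93). Among the members themselves r was highest for Vhl with Egln2 (0.77), Hif1a with Egln3 (0.74) and Arnt with Egln3 (0.73). It was lowest for Egln1 with Egln3 (-0.62), and Hif1a with Vhl stood at 0.032.

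On GRCm38, Hif1a lies on chromosome 12 (73901375 to 73947530, plus strand), where it overlaps the antisense gene Gm15283 and the same-strand gene Gm49321. The library kit kept strand, but the strand setting of the counting is not given in the sources used here, so reads of Hif1a and of these genes cannot be told apart. Vhl lies on chromosome 6 (113623959 to 113631633, plus strand) and overlaps no other annotated gene. Epas1 (chromosome 17, 86753700 to 86833410, plus strand) and Arnt (chromosome 3, 95434388 to 95497240, plus strand) each overlap a minor same-strand annotation that is not analysed here. Egln1 (chromosome 8, 124908587 to 124949324, minus strand), Egln3 (chromosome 12, 54178981 to 54203860, minus strand) and Hif1an (chromosome 19, 44562850 to 44576274, plus strand) overlap no other annotated gene. Egln2 lies on chromosome 7 (27158658 to 27166802, minus strand) and overlaps Cyp2t4 by 11 bases, a gene that reached at most 0.234 RPM.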

How the data were processed

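Poly(A) RNA was sequenced with a directional kit and 12 PCR cycles, per the labels' protocols. TopHat2, Bowtie2 2.0.13, featureCounts 1.5.1, R 3.4.4 and build mm10 are named in the submitters' processing notes. The deposited values are RPM per gene, scaled by the authors to 1000000 reads per library. All values came out as whole reads within 0.01 when divided by the worth of 1 read, and these reads gave the depths and the count tests. Floors cover counting error only. The counting strand is not given in the sources used here.

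Groups follow the labels. The 27 in vivo libraries, the 27 culture libraries and the 12 D21 libraries were each fitted in limma 3.58.1 (R 4.3.3, trend) on log2(RPM + 1), and the D20 to P6 comparisons in a joint fit of 54. A gene entered where a group averaged at least 1 RPM. The fits had 15401, 16065, 14392 and 16452 genes and 18, 18, 6 and 36 residual degrees of freedom. P-values were two-sided and Benjamini-Hochberg adjusted over all genes of a fit, with a threshold of 0.05. Alternatives were other pseudocounts and filters, median-of-ratios and TMM scaling, edgeR 4.0.16 and DESeq2 1.42.0 on the recovered reads, fits of only the groups compared, a replicate block, and each library left out. The fits were tested on simulated data, in which some genes were changed by a set amount. For WT hypoxia against WT normoxia, the share recovered was 2.99% when levels differed 1.5-fold. It rose to 35.8% for a doubling and to 93.9% for a 4-fold change. For P6 small against P6 large oocytes the matching shares were 56.7%, 88.1% and 98.5%. A gene that did not pass in the WT oxygen comparison may therefore still have changed by a doubling or less.

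The 8 members and the partner, target and marker lists were chosen with earlier results of these data known. All members are named. From the partner and target lists, the named genes are among the 3 called genes with the largest rise and the 3 with the largest fall (higher group mean at least 5 RPM), and pattern-like genes are the 3 of highest r, of which 1 is not reported here. Nr5a2, Emcn, Cdh5 and Esam were named after their values were seen. Promoters come from RefSeq on GRCm38.p6 and gene positions from GENCODE on GRCm38.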

Additional observations from a re-analysis of the deposited data

Results flagged for a closer look

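The gap in Epas1 between small and large oocytes differed between P6 and P4. Epas1 had 27.5, 32.3 and 32.6 RPM in P6 small oocytes, against 2.93, 2.99 and 4.17 RPM in P6 large oocytes, and 40.5, 29.8 and 34.7 RPM in P4 small oocytes, against 8.11, 7.98 and 10.999 RPM in P4 large oocytes. A direct limma test of the P6 difference minus the P4 difference gave 1.03 on the log2 scale (adjusted p = 0.0156), which is what marked it for a closer look. The test was chosen after the values were seen. Over its alternatives the value was 0.59 to 1.22 (adjusted p 0.00190 to 0.0415). With each of the 12 libraries left out it was 0.89 to 1.15 (adjusted p 0.0116 to 0.0600), and the call was lost in 1 of those fits, without P4 large replicate 3 (0.89, adjusted p = 0.0600).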

How the results depend on the processing

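Of the member values under alternatives, 1118 kept their direction and their side of the threshold, 97 fell below it, 46 passed it newly and 30 changed sign, and the cause was not tested. Another 48 of 128 member comparisons were never called, 19 of them with a sign change. D21 groups hold 2 libraries each, which limits their precision. In the oxygen comparison of WT, 3237 genes were called, 10 in a fit of only those groups, and 16 to 6011 with a library left out, with 0 and 0 to 7 members. For Tg hypoxia 147 genes were called, and 9 with pseudocount 5, 0 with no filter, 242 with TMM, 365 in edgeR, 1044 in DESeq2, 94 with a replicate block, 3854 with only those groups (members 3) and 0 with any 1 library left out. For Tg against WT in normoxia 1 was called, 2 under median-of-ratios, TMM and edgeR, 1662 in DESeq2 (members 1), 0 with only those groups and 1 to 5202 with a library left out (members 0 to 5). In hypoxia 1 was called, 2 in DESeq2 and 4 with only those groups. With oxygen not given 986 were called, 292 with pseudocount 0.1, 479 with no filter, 1 in edgeR, 1604 in DESeq2, 1 with a replicate block and 0 with only those groups. Its 1 called member became 0 with no filter, in edgeR, with the block and with only those groups, and leaving out a library gave 2 to 3171 genes and 0 to 2 members. The averaged oxygen comparison had 966 to 5767 genes and 1 to 6 members with a library left out, and the difference of the oxygen changes 0 to 2338 genes and 0 to 3 members, with 2 genes in DESeq2. At D11 against D5, 7432 genes and 4 members were called, with 2625 genes in a fit of only those groups and 2 members there, under TMM and in edgeR, and 2 to 4 members with a library left out. At D20 against P6 large, 2337 genes and 2 members were called, 1 member with pseudocount 5 and under the other scalings, 3816 genes with only those groups, and 1422 to 2063 genes and 1 to 2 members with a library left out. At D20 against P6 small, 5 members were called and 8 under the other scalings. Values under median-of-ratios, TMM, edgeR and DESeq2 changed sign for Arnt in P6 small against large oocytes (-0.44, -0.37, -0.38 and -0.45). At D20 against D11 they did so for Hif1a (0.18, 0.21, 0.24 and 0.20), Arnt (0.042, 0.072, 0.10 and 0.052) and Hif1an (0.47, 0.50, 0.48 and 0.45). Others were Hif1a in WT hypoxia (-0.039, -0.020, -0.047 and -0.046) and Arnt at D20 against P6 small (0.48, 0.43, 0.46 and 0.52). Leaving out a library gave -0.0066 to 0.45 for Arnt at E18.5, -0.30 to 0.055 for Hif1an at D20 against D11, -0.053 to 0.39 for Hif1a in WT hypoxia, -0.0028 to 0.37 for Egln1 over both genotypes and -0.15 to 0.19 for Arnt at D20 against P6 small. Libraries were not paired by replicate number: no source gives a shared batch, and in no set of 3 were all correlations over 0.1. In groups of 2 both replicates share the same correlation. For Tg against WT it was 0.122 in normoxia, -0.093 in hypoxia and -0.0015 with oxygen not given. The replicate block left 2647 calls in WT hypoxia, against 3237 without it. With the block the Egln2 calls in WT hypoxia (adjusted p = 0.0679, or adjusted p = 0.0661 with the numbers crossed) and over both genotypes (adjusted p = 0.0537) and the Epas1 call with oxygen not given (adjusted p = 0.0544) were lost, and Hif1a passed as lower at D20 against D11 (adjusted p = 0.0354). Same-numbered oxygen libraries deviated apart (r of -0.165 in WT and -0.164 in Tg), and a crossed pairing, chosen after seeing the data, gave 2479 calls in WT and 131 in Tg.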
